A study of Mus musculus with 2 samples.

Results

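The SoxE genes (Sox8, Sox9 and Sox10) and the SoxF genes (Sox7, Sox17 and Sox18) were examined at their promoters in mouse embryonic stem (ES) cells, by the ratio of Ring1B-bound to input DNA. Their probes were those that the array annotation names for one of the 6 genes, alone or as part of a hyphen-joined name for a promoter shared by neighbours transcribed in opposite directions. These probes numbered 233 and covered 5 genes, out of 16939 genes with at least 3 probes and 474222 usable probes on the arrays. Sox10 was not analysed here, so SoxE was represented by Sox8 and Sox9.

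Ring1B is an E3 ubiquitin ligase of Polycomb repressive complex 1 and marks histone H2A at genes that the complex holds silent. The Sox proteins bind DNA through an HMG box and are sorted into groups by the similarity of that box. SoxE proteins act in the neural crest and in glia, and Sox9 also directs cartilage formation and testis development. SoxF proteins act in blood and lymph vessels, and Sox17 also specifies endoderm. ES cells are undifferentiated, and developmental transcription factor genes are known as a main class of Polycomb targets in them.

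The study used 1 kind of cell, ES cells, and 1 antibody, a monoclonal against Ring1B. Neither a line, genotype, treatment nor time was stated in the labels, and their source names begin with Muscle while the titles name ES cells. Chromatin fixed with formaldehyde was immunoprecipitated, and the recovered DNA (Cy5) was hybridised with input DNA (Cy3) after amplification by linker-mediated PCR. The 2 arrays shared 0 probes, so each promoter was measured on 1 array, without replicate, dye swap or mock immunoprecipitation. Sox17 and Sox18 lay on slide 1, and Sox7, Sox8 and Sox9 on slide 2. The arrays measure DNA and give no expression level, so the identity of the cells could not be checked against marker genes.

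Every ratio below is a log2 of immunoprecipitated over input signal, after subtraction of its slide's median over all probes. A value of 0 is therefore the typical probe, and 1 is 2-fold above it. The SD beside a gene's mean is the spread over its probes, not over experiments, and no p-value was possible. As the slides were centred separately, values of genes on different slides stand side by side only after that step. The scanner software called input signal well above background at 207 of the 233 Sox probes, against 74.1% (slide 1) and 76.3% (slide 2) of all probes. By gene this was 23 of 36 in Sox17, below the share of its slide, and 49 of 57 in Sox18. On slide 2 it was 38 of 40 in Sox7, 55 of 58 in Sox8 and 42 of 42 in Sox9. Coordinates are those in the array files (genome build: not given in the sources used here). Both channels stood at the floor of the software at 14 Sox probes, 8 in Sox17, 5 in Sox18 and 1 in Sox8.

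The probe with the highest ratio of immunoprecipitated to input signal is shown for each gene. It was not always the probe with the strongest immunoprecipitated signal, and each ratio is a single measurement. CpG dinucleotides are in capitals, with bases as the array file gives them (its strand was not stated there).
Sox17, chr1:4492183-4492230: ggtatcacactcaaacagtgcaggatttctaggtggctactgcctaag
Sox18, chr2:182172544-182172588: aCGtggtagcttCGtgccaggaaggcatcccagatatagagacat
Sox9, chr11:112890956-112891005: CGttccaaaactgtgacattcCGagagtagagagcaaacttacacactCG
Sox7, chr14:58807145-58807197: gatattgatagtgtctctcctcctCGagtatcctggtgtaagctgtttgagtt
Sox8, chr17:23760843-23760902: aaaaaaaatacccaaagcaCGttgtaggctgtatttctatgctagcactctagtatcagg
In 4 of the 5 genes the highest probe lay just upstream of the transcription start. The distances were 75 bp in Sox18, 150 bp in Sox17, 240 bp in Sox9 and 437 bp in Sox7, from starts known only to within 68.5 to 150 bp. In Sox8 it lay 7382 bp upstream, in the promoter shared with the gene named 2400010G15Rik. The probe sequences differ in CpG content, from 0 in Sox17 to 3 in Sox9.

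Over all its probes, none of the 5 genes reached a mean of 1, a level reached by 2.00% of all genes, and none had a mean of -1 or less, against 1.87%. Sox17 was highest with 0.97 ± 1.23 (SD, 36 probes; chromosome 1, 4489678 to 4497410), or 1.95-fold above the typical probe. Sox9 followed with 0.77 ± 1.81 (42 probes; chromosome 11, 112885831 to 112893715), and Sox7 with 0.66 ± 1.32 (40 probes; chromosome 14, 58802255 to 58810042). Sox18 had 0.30 ± 1.47 (57 probes; chromosome 2, 182170186 to 182181129). Sox8 had 0.03 ± 1.45 (58 probes; chromosome 17, 23751081 to 23762059). Each step in this order was smaller than the SD over probes of either gene. That SD is a spread along the gene and not an error of its mean, so differences between the means were not tested. All 5 means lay above the median of all genes, -0.10. Among the genes of its slide Sox17 ranked 155 of 8518, Sox9 328 of 8421, Sox7 465 of 8421, Sox18 1070 of 8518 and Sox8 3387 of 8421. The count of 0 genes at 1 depended on the processing: Sox17 stood at 1.20 without centring and at 1.28 without probes dim in input, and Sox9 at 1.13 with normexp background correction and at 1.37 by the median of its probes.

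The whole-gene mean joined strong and weak stretches. At the individual probes, 86 of 233 (36.9%) had a ratio of at least 1, against 19.7% of all probes, and 34 (14.6%) had -1 or less, against 20.6%. Close to the start the picture was more uniform. Within 1000 bp on either side, 38 of 56 Sox probes had at least 1, against 23.3% of all probes so placed, and 0 had -1 or less, against 19.0%. The mean over that window was at least 1 in 4 of the 5 genes, against 8.13% of all genes, and Sox8 was the exception. It was -1 or less in 0 of the 5, against 6.55%. Neighbouring probes report overlapping DNA fragments and are not separate measurements of the gene.

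**Figure D1:**
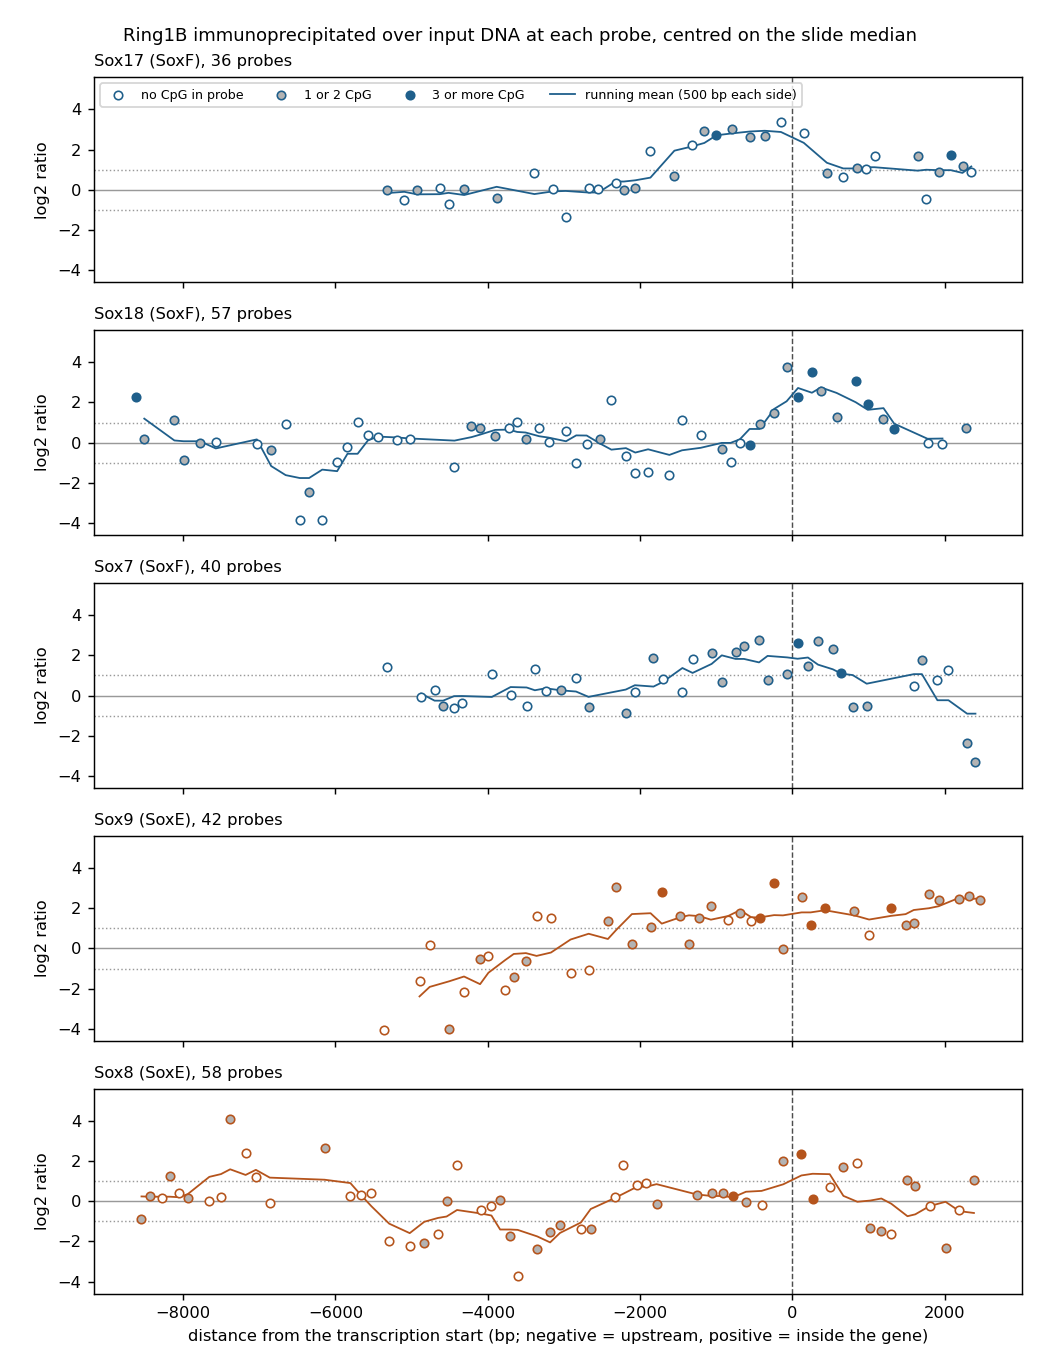
Log2 ratio of Ring1B immunoprecipitated over input DNA at every probe of the 5 Sox genes, plotted by distance from the transcription start in bp (negative is upstream, dashed line is the start, dotted lines are 1 and -1). Points are filled by the number of CpG in the probe and the line is the running mean over 500 bp on either side. The running means of Sox17, Sox18 and Sox7 are highest around the start, that of Sox9 stays at 1 or more from 2136 bp upstream to the end of the tiled region, and Sox8 moves up and down around 0.

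Sox17, a specifier of definitive endoderm that also acts in arteries, had the highest mean ratio near its start. The 10 probes within 1000 bp ranged from 0.65 to 3.39, with a mean of 2.09 ± 1.05, 4.26-fold above the typical probe. That placed it 89th of the 15347 genes with at least 3 probes in the window. The 5 probes in the first 1000 bp upstream lay between 2.61 and 3.39, with a mean of 2.90 ± 0.32. Their median signal was 983 in input and 8539 in immunoprecipitated DNA. At the highest probe, 150 bp upstream, immunoprecipitated signal was 5186 against 422 for input, and the scanner software put the error of that ratio at 0.41 (log2). Inside the gene the mean was 1.28 ± 0.87 over 5 probes in the first 1000 bp and 1.07 ± 0.77 over 7 probes farther in. Beyond 3000 bp upstream the 9 probes had -0.07 ± 0.45, and 5 of these stood at the floor in both channels, which fixes their ratio near 0. No probe beyond 3000 bp upstream reached 1 in Sox17.

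A run was a set of 3 or more neighbouring probes, less than 1000 bp apart, at each of which the mean ratio of the probes up to 500 bp away was at least 1. A run of at least 2000 bp was found in 3 of the 5 genes, Sox9, Sox17 and Sox7, against 3.03% of all genes. With the sign turned, 0 of the 5 had one, against 0.986%. The call held for Sox9 alone when probes up to 250 bp away were averaged (0.313% of all genes) or 3000 bp was required (1.41%), and for 0 of the 5 at a running mean of 1.5 (1.17%). In Sox17 the run was 2688 bp long (14 probes, mean 2.03), from 1578 bp upstream to 1109 bp inside the gene. Over both slides, 277 runs were at least as long, against 25 with the sign turned.

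Sox18, which acts in blood and lymph vessel formation, had its signal inside the gene and at the start itself. The 13 probes within 1000 bp ranged from -0.94 to 3.77, with a mean of 1.49 ± 1.53. All 6 probes in the first 1000 bp of the gene lay at 1 or more, between 1.30 and 3.51, with a mean of 2.44 ± 0.79. The 7 probes in the first 1000 bp upstream had 0.68 ± 1.58, with 2 at 1 or more. Its highest probe, 75 bp upstream, had 3.77 (error 0.43), with a signal of 8546 in immunoprecipitated DNA and 535 in input. The run here was 1477 bp long (9 probes, mean 2.34), from 257 bp upstream to 1219 bp inside, and so stayed under 2000 bp. Over both slides 840 runs were at least as long, against 550 with the sign turned. Runs of at least 1000 bp were found at 8.24% of all genes, and at 10.2% with the sign turned, so runs of 1000 bp or more are not rare in these data.

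Sox18 shares a long promoter with Tcea2, a transcription elongation factor gene whose start lies 8735 bp away. Of the 57 probes, 46 carry the joint name, and these had a mean of 0.00 ± 1.37. The 11 probes named for Sox18 alone, 8 inside and 3 downstream of the gene, had a mean of 1.56. The 10 probes named for Tcea2 alone had -0.44 ± 1.39, from -2.47 to 2.07. Between 5950 and 6865 bp upstream of Sox18, 6 probes formed a run with the sign turned (mean -1.76), which held the gene's lowest probe, at -3.86.

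Sox7, expressed in endothelial precursors and in extraembryonic endoderm, had high ratios on both sides of its start. Its 13 probes within 1000 bp ranged from -0.59 to 2.74, with a mean of 1.46 ± 1.17 and 9 of them at 1 or more. The first 1000 bp upstream had 1.65 ± 0.92 (6 probes), and the first 1000 bp inside had 1.30 ± 1.40 (7 probes). Signal in this window was bright, with a median of 8406 in immunoprecipitated DNA and 2229 in input. The run spanned 2297 bp (15 probes, mean 1.58), from 1473 bp upstream to 823 bp inside the gene. Upstream the ratios were lower at greater distance, with 0.72 ± 1.08 between 1000 and 3000 bp (9 probes) and 0.21 ± 0.71 beyond (12 probes). Farther inside the gene the 6 probes went both ways (-0.23 ± 2.08), and the last of them, 2404 bp inside, had -3.31.

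Sox9, the regulator of cartilage and testis development and of the neural crest, had the longest stretch. Its run covered 4632 bp (26 probes, mean 1.69), from 2136 bp upstream to 2495 bp inside the gene, where the tiled region ends, so its full length was not measured. Over both slides 78 runs were at least as long, and 2 with the sign turned. Within 1000 bp of the start 9 of 10 probes had at least 1, with a mean of 1.69 ± 0.87 (3.22-fold) and a range of -0.03 to 3.28. Signal there was bright, with a median of 10529 in immunoprecipitated DNA and 3579 in input. Among the 15347 genes Sox9 ranked 267th in this window, Sox18 424th, Sox7 456th and Sox8 1509th. Farther inside, 8 of 9 probes had at least 1, with a mean of 1.96 ± 0.74. Immunoprecipitated signal at those 9 probes had a median of 12438, against 2053 for input.

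Farther upstream the mean of Sox9 was negative. The 12 probes beyond 3000 bp upstream had a mean of -1.14 ± 1.83, with 6 at -1 or less and 2 at 1 or more, where all probes of slide 2 at such distances had -0.13 ± 1.42. A run with the sign turned covered 960 bp there (6 probes, mean -1.43). The lowest probe lay 5364 bp upstream, at -4.08. The gene's mean of 0.77 takes in these probes, while its median probe was at 1.37.

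Sox8, expressed in neural crest, glia and testis but less required than Sox9 or Sox10, gave the weakest signal. Its 10 probes within 1000 bp of the start ranged from -0.16 to 2.33, with a mean of 0.92 ± 0.96, a median of 0.55 and 4 at 1 or more. Inside the gene the first 1000 bp had 1.35 ± 0.91 (5 probes), and the first 1000 bp upstream 0.49 ± 0.87 (5 probes). Farther in, the 9 probes had -0.51 ± 1.27. The only run at the start was 417 bp long (3 probes, mean 1.05), and 4791 runs over both slides were at least that long, against 8299 with the sign turned.

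The rest of the Sox8 promoter, shared over 44 probes with 2400010G15Rik, held probes of both signs. A run of 1573 bp lay 6113 to 7685 bp upstream (7 probes, mean 1.497, median input signal 127), nearer to the start of 2400010G15Rik, 8627 bp from that of Sox8. It held the highest probe of all 5 genes, at 4.10 (error 0.51), where input signal was only 85.6. Between it and Sox8, a stretch of 1109 bp averaged -1.70 and another of 506 bp averaged -2.09. The 12 probes named for 2400010G15Rik alone had -1.43 ± 1.501.

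**Figure D2:**
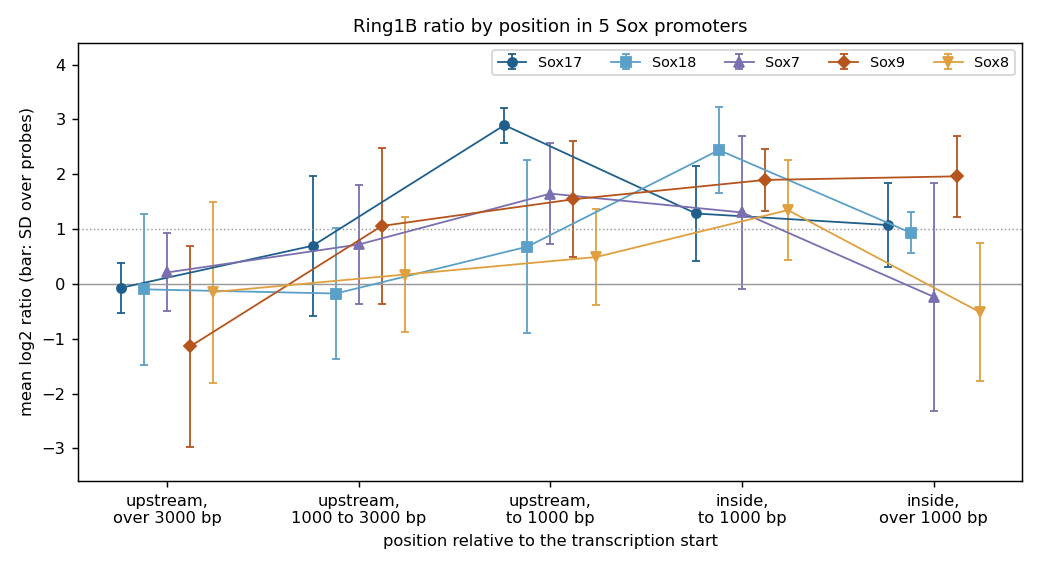
Mean log2 ratio (points) with the SD over probes (bars) in 5 zones by distance from the transcription start, for each of the 5 Sox genes. Sox17 is highest in the first 1000 bp upstream (2.90), Sox18 in the first 1000 bp inside (2.44), and Sox9 keeps 1.96 beyond 1000 bp inside, where Sox7 and Sox8 lie at -0.23 and -0.51.

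The most negative probes were bright in input. In Sox7, Sox8, Sox9 and Sox18 the lowest probe had an input signal between 2041 and 3103 and an immunoprecipitated signal between 135 and 311. In Sox17 the lowest probe was dim in both channels (155 and 72.0) and stood at -1.34 with an error of 1.31. The lowest probes of Sox9 and Sox18, the lowest 2 among the 5 genes' lowest probes, are shown for contrast with the highest ones above, and both lie far upstream of the start.
Sox9, chr11:112885831-112885881: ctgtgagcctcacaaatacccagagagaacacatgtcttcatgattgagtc
Sox18, chr2:182178639-182178687: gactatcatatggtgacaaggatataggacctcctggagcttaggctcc
They had 0 CpG each, where the highest probes of the same genes had 3 and 2. In Sox8 the lowest probe had 0 and the highest 1, in Sox17 both had 0, and in Sox7 the lowest, inside the gene, had 2 and the highest 1. These probes were picked by their ratios, so the gap between highest and lowest follows from the choice. The errors of the single ratios were 0.40 and 0.45 in Sox9 and 0.43 and 0.42 in Sox18.

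Over the 233 Sox probes together, the ratio was higher where the probe held more CpG. The 20 Sox probes with 3 or more CpG had a mean of 1.87 ± 1.05 and the 108 without CpG had 0.07 ± 1.34, against 0.32 ± 1.24 and -0.17 ± 1.35 over all probes. Position differed with CpG content too. Within 1000 bp of the start the 11 Sox probes without CpG had 1.10 ± 1.28 and the 15 with 3 or more had 1.86 ± 1.15. Away from the start the 97 without CpG had -0.04 ± 1.30, and the 5 with 3 or more had 1.90 ± 0.79. The part of CpG content in the ratios was not tested.

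**Figure D3:**
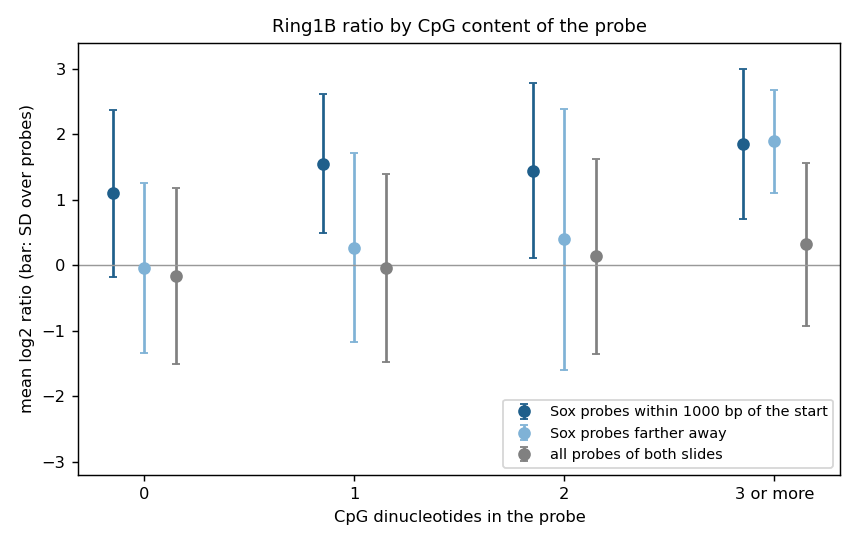
Mean log2 ratio (points) with the SD over probes (bars) by the number of CpG dinucleotides in the probe, for Sox probes within 1000 bp of the start, Sox probes farther away, and all probes of both slides. Near the start the Sox probes average 1.10 with no CpG and 1.86 with 3 or more. All probes, taken at any distance from a start, average -0.17 and 0.32, so these sets differ in position too.

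From gene to gene the order was not that of CpG content. Around its start Sox17 had 1.00 CpG per probe, the lowest of the 5 genes, and the highest mean ratio. In falling order of that mean, Sox9 had 1.90 per probe, Sox18 2.38, Sox7 1.62 and Sox8 1.5. Apart from Sox17, the gene with the fewest CpG, Sox8, also had the lowest mean ratio, but the gene with the most, Sox18, did not have the highest. The probe with the most CpG within 1000 bp of the start is shown for Sox17 and Sox8, the genes with the highest and the lowest mean there, with CpG in capitals.
Sox17, chr1:4493031-4493075: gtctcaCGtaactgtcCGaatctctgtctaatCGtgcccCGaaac
Sox8, chr17:23753350-23753394: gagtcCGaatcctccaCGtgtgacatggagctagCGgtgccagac
The Sox17 probe held 4 CpG and had a ratio of 2.75, and the Sox8 probe held 3 and had 2.33.

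A RefSeq promoter sequence (250 bases before to 50 after the start) was matched for 1 of the 6 genes, Sox8, in build GRCm38.p6, whose coordinates differ from those of the array files. It is shown because this gene had the lowest mean ratio near the start, with CpG again in capitals.
Sox8 promoter, chr17:25570637-25570936, minus strand: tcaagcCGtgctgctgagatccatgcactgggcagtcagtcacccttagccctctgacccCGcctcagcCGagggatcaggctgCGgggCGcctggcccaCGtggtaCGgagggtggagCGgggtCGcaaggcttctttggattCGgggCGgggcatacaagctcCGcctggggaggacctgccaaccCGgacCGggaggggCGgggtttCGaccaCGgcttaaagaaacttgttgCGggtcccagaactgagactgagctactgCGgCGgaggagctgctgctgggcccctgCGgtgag
It holds 21 CpG (the motif CG, which reads the same on both strands). Of 32851 RefSeq promoters of the same length, 94.6% held at least 1 CG, the median was 7, and 24.8% held 21 or more.

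Set among the other Sox genes, the 5 SoxE and SoxF genes lay below the 3 highest and above the 5 lowest of the 17 measured. Of the 14 other Sox genes listed, 12 were measured, and Sox13 and Sox14 were not analysed here. Their median was 0.27, against 0.66 for the 5 SoxE and SoxF genes, and 3 of the 12 reached 1, against 0 of 5. The 3 were Sox3 at 1.502 ± 0.99 (45 probes), Sox21 at 1.41 ± 1.18 (46 probes) and Sox1 at 1.15 ± 0.66 (11 probes), all SoxB genes of the neural lineage. The probes of Sox1 covered only 12360584 to 12362334 on chromosome 8, a shorter region than in any of the 5 genes. Its mean is therefore not taken over a like region. The same 3 were those of the 12 with a run of at least 2000 bp, against 3.03% of all genes. A gene counted if any of its probes lay in such a run. The region named for Sox1 is itself shorter than 2000 bp, so its run reaches beyond the probes of that name. Sox2, also a SoxB gene and one which ES cells express, had 0.32 ± 1.25, close to Sox18, so the SoxB genes were not uniformly high. The lowest was Sox15 at -0.65 ± 1.38. The SoxC genes Sox4, Sox11 and Sox12 had 0.79, 0.22 and -0.14, and the SoxD genes Sox5 and Sox6 had -0.28 and 0.02. Sox30 and Sry, both of the male germline or gonad, had 0.48 and -0.13. The SDs over probes of all these genes overlapped, which is no test of a difference between their means.

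**Figure D4:**
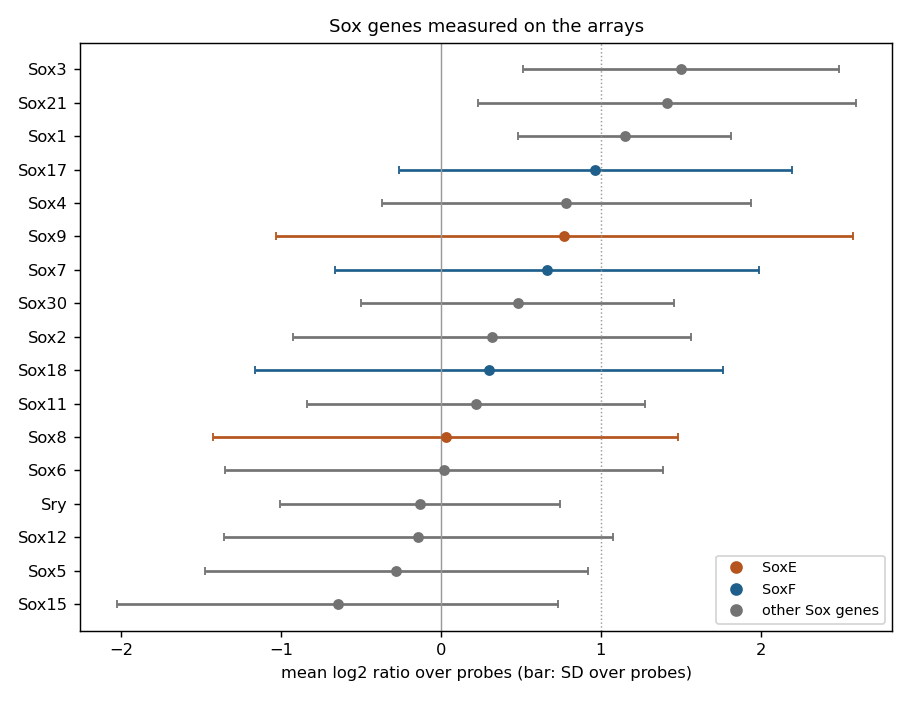
Mean log2 ratio over probes (points) with the SD over probes (bars) for the 17 Sox genes measured, in order of the mean. SoxE genes, SoxF genes and other Sox genes are coloured apart, and Sox17 (0.97) stands next below the SoxB genes Sox3, Sox21 and Sox1. Sox2, also a SoxB gene, is lower (0.32), and the probes of Sox1 cover a shorter region than those of the SoxE and SoxF genes.

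Genes that act with or downstream of these factors were followed in 3 lists. For endoderm and endothelium, the SoxF tissues, 21 of 22 genes were measured, 9 reached 1 and 0 reached -1, with a median of 0.68. The highest were the endoderm factors Gata6 at 1.93 ± 1.21 and Foxa1 at 1.80 ± 1.09, and the lowest was the matrix protease gene Mmp7 at -0.55 ± 1.20. Cldn5 was not analysed here. A run 2000 bp long or longer touched 10 of these 21 genes, and 4 of 14 in each of the other lists below. Over the 16939 genes the share with such a run was 3.03%, and the difference was not tested. For the neural crest and glia, 4 of 14 genes reached 1 and 0 reached -1, with a median of 0.015. Among those at 1 or more were the neural crest factors Pax3 at 1.43 and Foxd3 at 1.17. The neural crest genes Snai2, Ednrb, Ret and Mitf had -0.06, -0.31, -0.46 and -0.55. The lowest was the neuregulin receptor Erbb3 at -0.98 ± 1.33, and 7 of the 14 genes lay above 0. For cartilage and gonad, 4 of 14 genes reached 1 and 1 reached -1, with a median of 0.09. The highest were Wt1 at 1.66 ± 1.31 and the growth factor gene Fgf9 at 1.51 ± 1.23, both of the developing gonad. Gata4 at 1.47 and the Hedgehog ligand gene Dhh at 1.09 followed. The gonad genes Nr5a1 and Amh had -0.69 and -0.26. The lowest was the prostaglandin synthase gene Ptgds at -1.02 ± 1.53. The 6 cartilage matrix genes of the list went both ways, with Col2a1 at 0.81, Comp at 0.57 and Acan at 0.43, and with Col9a1 at -0.40, Col11a2 at -0.58 and Matn1 at -0.84. The lists hold known developmental regulators beside genes of differentiated cells, and their shares at 1 stand beside 2.00% of all genes without a test.

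The gene means were recomputed under 11 other settings, which differ in background correction, centring, probes used or summary. Sox17 then had between 0.83 and 2.09, Sox9 between 0.77 and 1.69, and Sox7 between 0.63 and 1.46. Sox18 had between 0.20 and 1.56, and Sox8 between -0.27 and 0.92. The order depended on the setting, as Sox9 stood above Sox17 with normexp, with the deposited series table and by the median.

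**Figure D5:**
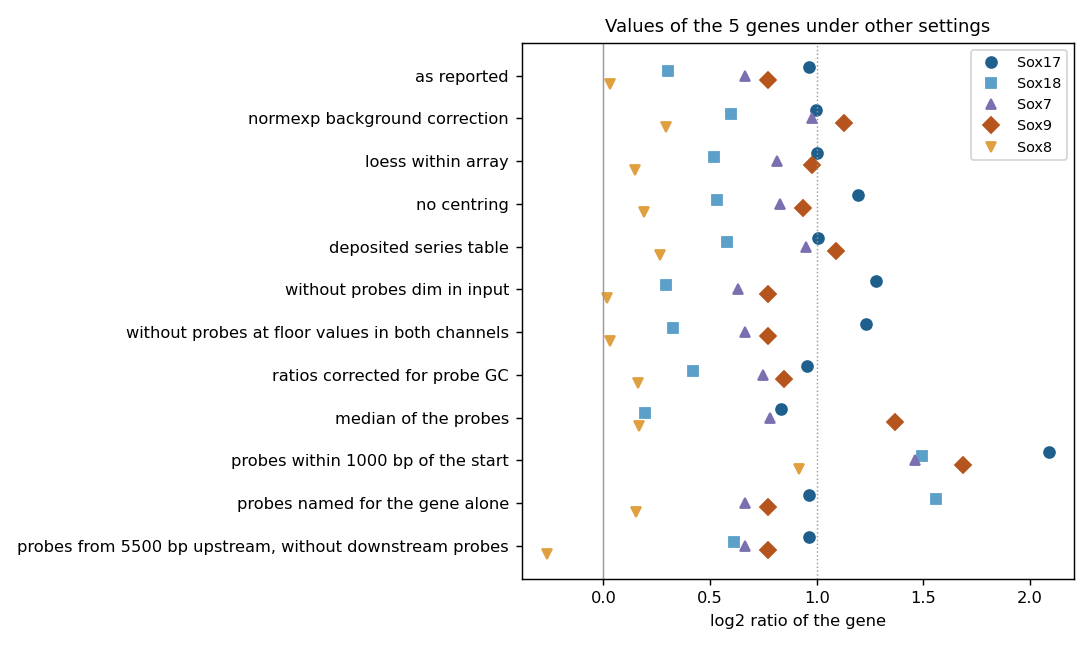
Log2 ratio of each of the 5 Sox genes as reported and under 11 other settings (dotted line at 1). Probes within 1000 bp of the start give the highest values for Sox17, Sox9, Sox7 and Sox8, and Sox8 is below 0 (-0.27) in 1 setting, the region from 5500 bp upstream.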

How the data were processed

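Agilent Feature Extraction 9.1.3.1 produced the authors' array files (per their headers). Signals are background-subtracted and dye-normalized intensity values, per the file headers, with dim spots set to a floor. The error of each ratio is deposited as a log10 value and was converted to log2. The deposited series table holds the log2 ratio of mean signals, not centred. It matched that ratio to within 5.0e-05 and was centred for use.

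Controls and 141 and 17 outlier spots (0 in the Sox genes) were left out, and slide medians of 0.23 and 0.16 (log2) were subtracted. Gene names come from the array annotation. Transcription starts were placed midway between the last promoter and first inside probe, known to 68.5 to 150 bp. For Sox17 and Sox18 it differed from the given start by a median of 51.5 and 29.0 bp. Lists were matched by symbol or a synonym in RefSeq.

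The named genes were the members with their highest and lowest probes, divergent partners, neighbours in rank, and the 2 highest and the lowest of each list. Some items that this rule takes are not reported here. Others were chosen after their values were seen. They were Sox1, Sox2, Sox30, Sry, the SoxC and SoxD genes, Pax3, Foxd3, Snai2, Mitf, Ednrb and Ret. From the cartilage and gonad list they were Gata4, Dhh, Nr5a1, Amh and the cartilage matrix genes. The members and lists were chosen with earlier results of these data known. Alternatives covered normexp (offset 50) and loess in limma 3.58.1, centring, the series table, dim and floor probes, probe GC, probe choice, and thresholds. The code was tested on simulated data. Python 3.11.15 and R 4.3.3 were used.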

Additional observations from a re-analysis of the deposited data

How the results depend on the processing

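The number of genes with a mean of at least 1, which was 0, became 1 with normexp (Sox9), loess, no centring, probes dim in input left out, probes at floor values left out (Sox17 in each of these 4), the median of the probes (Sox9) and only probes named for the gene alone (Sox18). It became 2 with the deposited series table (Sox9 and Sox17), 4 with probes within 1000 bp of the start (all but Sox8), and 1 at a threshold of 0.8 (Sox17). Of all genes, 3.09% passed at 0.8, 2.28% with loess, 2.40% by the median and 2.08% with probes named for the gene alone. The number with a run of at least 2000 bp, which was 3, became 1 with probes within 250 bp averaged (Sox9), 0 at a running mean of 1.5, 5 at a minimum length of 1000 bp (in Sox8 by the run far upstream) and 1 at 3000 bp (Sox9). The shares of all genes were 0.313%, 1.17%, 8.24% and 1.41% in this order. It was 4 with 1000 bp averaged (4.03% of all genes) and 3 in the 8 other settings run. The share of all genes with such a run was not computed in these 8, so the count of 3 has no reference there. The means of Sox7, Sox9, Sox17 and Sox18 stayed above 0 in all 11 settings, and that of Sox8 in 10. The setting that leaves out probes over 5500 bp upstream and downstream probes was added after the data were seen (Sox18 0.61, Sox8 -0.27).

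Over all genes, 338 had a mean of at least 1 and 317 of -1 or less. The split was 447 and 62 with normexp, 433 and 52 with the series table, 507 and 127 without centring and 385 and 226 with GC correction. Leaving out dim probes gave 387 and 1261, and leaving out floor probes 433 and 675.

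No paired analysis was possible because each promoter was on 1 array and no test was made. Each of the 5 genes rests on 1 hybridisation, so the spread between experiments is unknown.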

Other observations

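Among the genes of its slide with at least 20 probes, Sox17 stood at place 135 of 6895 by mean ratio, between Ptger3, a prostaglandin receptor gene (0.97 ± 1.24), and Celsr2, a cadherin of planar cell polarity (0.96 ± 1.52). Sox9 stood at place 276 of 6836, between C330012H03Rik (0.78 ± 1.05) and Tmem42 (0.77 ± 1.56). Sox7 was at place 378, next to Dio3, an imprinted deiodinase gene (0.67 ± 1.44), and Pdcd2 (0.66 ± 1.13). Sox18 was at place 841 of 6895, between Tchhl1 (0.30 ± 1.18) and Acadsb (0.30 ± 0.82). Sox8 was at place 2784 of 6836, between Tbc1d22b (0.03 ± 0.71) and Cast (0.03 ± 1.01). These genes share only a mean over probes measured on 1 array.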
